A study of Drosophila melanogaster with 24 samples.

Results

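Clock neurons of old Marf-mut flies were compared with clock neurons of old Cas9 control flies, across all genes of a table of unique molecular identifier (UMI) counts. The comparison was defined by genotype and age alone: the 3 libraries of old Marf-mut neurons against the 3 of old Cas9 neurons, 6 of the 24 libraries in the series. Old Marf-mut males carried CLK856-Gal4, a driver of the fly brain's clock neurons, with UAS-Cas9, UAS-eGFP and UAS-3XgRNA-Marf, which encodes guide RNAs against Marf. Old Cas9 males carried the driver, UAS-Cas9 and UAS-eGFP without guides, so Cas9 and eGFP were expressed in both groups. All flies were about 35 days old and were dissected at zeitgeber time 14. Each library came from about 1000 eGFP-positive cells sorted by flow cytometry, polyA RNA and Smart-seq3, which counts each captured molecule once by an identifier at its 5′ end. The 3 libraries of a group were drawn from a single suspension of 80 to 100 brains, so the spread between them is that of sorted pools and not of separate groups of flies. Old Opa1-mut, old Drp1-mut and young (about 15 days) Marf-mut and Cas9 libraries, made in the same way, are used below for reference.

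Marf is the fly mitofusin, a GTPase that joins the outer membranes of neighbouring mitochondria. Opa1 joins the inner membranes and Drp1 divides mitochondria, and the balance between them sets the shape of the network. In neurons, fused mitochondria share their DNA and proteins along long processes. Clock neurons keep daily time with a loop in which Clk and cyc activate per and tim, whose products then repress them, and they signal through neuropeptides such as Pdf.

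Depth was greater in each of the old Marf-mut libraries, with 1394517, 1532339 and 1735212 UMIs, than in any old Cas9 library, with 1313809, 1286609 and 1109778 UMIs. Among all tested genes, the background for the marker counts here, 2.91% fell in old Marf-mut and 1.68% rose. Of 10 clock neuron markers, all of them tested, 2 fell in old Marf-mut (Pdp1 and tim, which are also core clock genes, below) and none rose. Of these markers 9 had a negative difference, with a median log2 fold change of -0.51. The exception was Pdf, the most abundant of them, which had 18400, 17300 and 14100 CPM (UMIs scaled to a common library total) in old Marf-mut and 10800, 10400 and 12900 CPM in old Cas9 and was not called. The neuronal markers elav, nSyb, Syt1 and brp were detected in all 6 libraries, and none was called. Summed over 10 photoreceptor markers, levels lay between 102 and 132 CPM in old Marf-mut and between 81.9 and 92.3 CPM in old Cas9. Of these markers 2 could be tested, both had a positive difference and Arr2 rose, while the opsin ninaE stood at 0.712, 0.639 and 0 CPM in old Marf-mut, against 1.58, 0 and 0 CPM in old Cas9. Summed over 10 glial markers, levels ran between 807 and 1010 CPM in old Marf-mut and between 459 and 747 CPM in old Cas9, and all 7 testable glial markers had a positive difference, 1 of them (Indy) called, a call lost in 4 of the 6 omissions of a library. Of 9 tested peptide genes of other secretory neurons none was called. Of these, 3 had separate groups higher in old Marf-mut and 1 lower, where 12.1% and 9.77% of all tested genes did. Some varied widely inside a group. Hug had 279, 4660 and 4730 CPM in old Marf-mut and 8180, 8540 and 8040 CPM in old Cas9, and Dsk had 4270, 517 and 2300 CPM against 188, 4170 and 4050 CPM. These peptide levels thus differed between pools of a single suspension. The part of the clock neuron, photoreceptor, glial and peptide markers in the results was not tested. In such bulk samples, fewer cells of a type and less RNA per cell cannot be told apart.

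Transcripts of the targeted gene were slightly fewer in old Marf-mut neurons, but the difference did not pass the test. Marf, on chromosome X at 6365949 to 6370924 of the release 6 (dm6) genome, had 105, 119 and 123 CPM in old Marf-mut, against 137, 141 and 136 CPM in old Cas9. The 3 Marf-mut values all lay below the 3 Cas9 values. The log2 fold change was -0.27 (standard error 0.12, adjusted p = 0.228; edgeR quasi-likelihood test with Benjamini-Hochberg adjustment over 7090 genes, as for all adjusted p below unless named otherwise). In the young groups Marf had 103, 108 and 145 CPM in Marf-mut, against 161, 128 and 143 CPM in Cas9. Marf had 127, 116 and 145 CPM in old Opa1-mut and 122, 115 and 136 CPM in old Drp1-mut. Between old Marf-mut and old Opa1-mut it was not called (-0.17, adjusted p = 0.343). A UMI at the 5′ end counts a transcript whether or not Cas9 has altered its sequence, so these levels do not show how many alleles were changed. Neither Drp1 (152, 160 and 147 CPM in old Marf-mut, against 165, 153 and 162 CPM in old Cas9; adjusted p = 0.741) nor Opa1 (145, 153 and 181 CPM, against 150, 147 and 152 CPM; adjusted p = 0.8) was called. Of 12 tested genes of mitochondrial fission, fusion and transport, 1 was called, where 4.58% of all tested genes were called. The called gene, Chchd2, a small intermembrane-space protein, was lower by a log2 fold change of -0.37 (adjusted p = 0.0413), and the ranges of its groups overlapped. That call was lost when any of 4 of the 6 libraries was left out.

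Across the transcriptome, 325 of 7090 tested genes (4.58%) were called at an adjusted p under 0.05. Of these, 119 were higher in old Marf-mut (1.68% of those tested) and 206 lower (2.91%). Most differences were modest: the median size of a called difference was 0.68 on the log2 scale, and 44 rises and 35 falls passed 2-fold. Among all tested genes the median log2 fold change was 0.01. The count of calls rests on the libraries used: it was 201 without old Marf-mut replicate 1 and 468 without old Cas9 replicate 3. It was 138 with library depth as a covariate and 117 in a single fit of all 24 libraries. With total counts as the scale, 62% of calls were higher, against 36.6% here, so the balance of rises and falls depends on the scale.

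**Figure D1:**
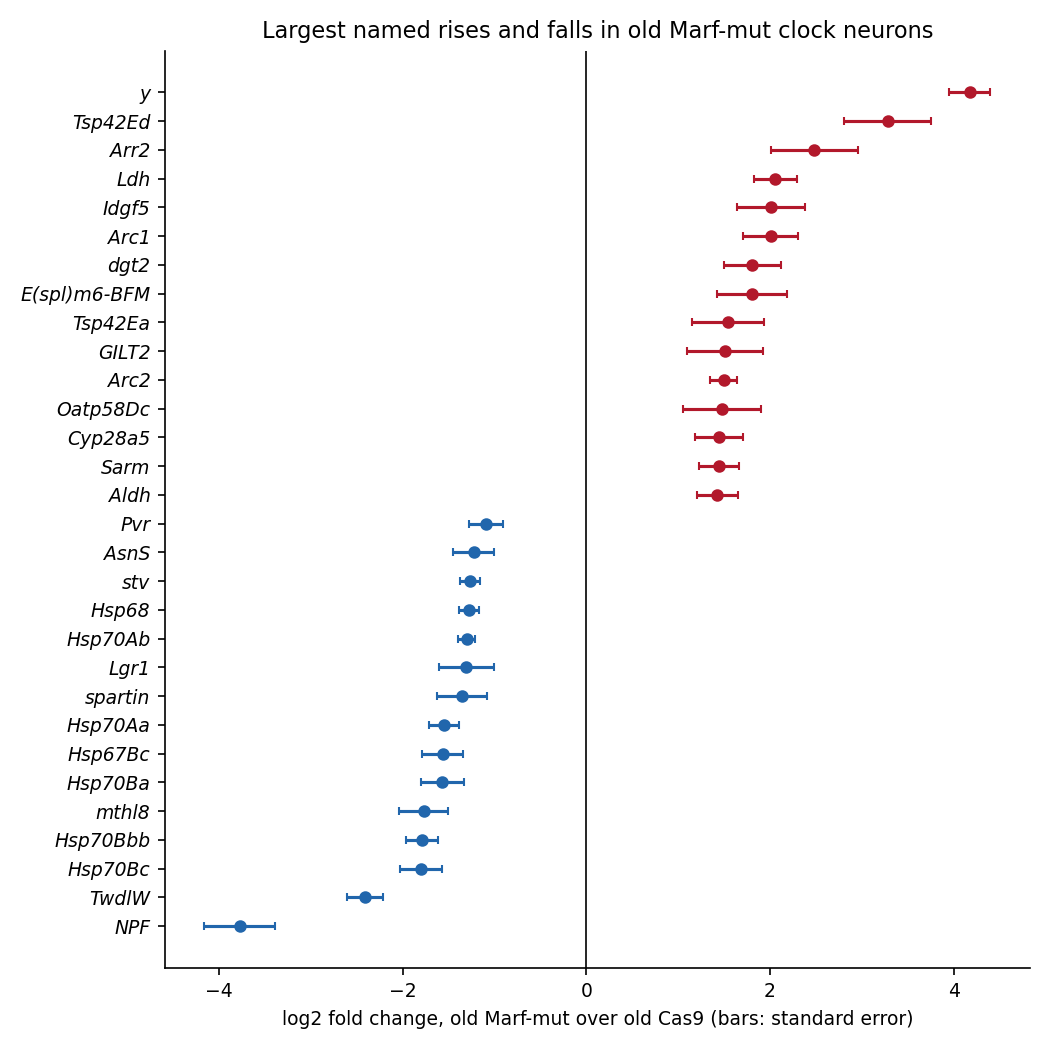
Log2 fold change of old Marf-mut over old Cas9 for the 15 largest named rises (red) and 15 largest named falls (blue), with standard errors from the fit on 3 libraries per group. The gene y lies farthest to the right at 4.18 and NPF farthest to the left at -3.78, and 8 of the 15 falls are heat shock genes or their co-chaperone stv.

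Most heat shock genes fell in old Marf-mut. Of 21 tested members of a heat shock list, 15 fell and none rose, where 2.91% of all tested genes fell, and the list's median log2 fold change was -0.89 against 0.01 over all genes. The list as a whole took 0.843 ± 0.044% of UMIs in old Marf-mut and 1.39 ± 0.0173% in old Cas9 (SD, n = 3 each), with no overlap. Heat shock proteins are chaperones that hold or refold damaged proteins, and many of their genes are switched on by the factor Hsf. Hsf itself had 83.3, 81.1 and 65.5 CPM in old Marf-mut, against 74.8, 100 and 98.5 CPM in old Cas9, and was not called (adjusted p = 0.378).

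All 6 copies of Hsp70, the main inducible chaperone, fell. Their sum was 2850, 2580 and 3010 CPM in old Marf-mut and 5250, 5670 and 6010 CPM in old Cas9. The copies are near-identical, and how reads that fit several copies were counted is not given in the sources used here, so the sum is firmer than the split between copies. Hsp70Ab had 515, 501 and 569 CPM in old Marf-mut, against 1150, 1340 and 1360 CPM in old Cas9 (log2 fold change -1.30, standard error 0.09, adjusted p = 8.47e-10). Hsp70Bbb had 53.4, 69.6 and 101 CPM in old Marf-mut, against 243, 252 and 276 CPM in old Cas9 (-1.79, standard error 0.17, adjusted p = 6.42e-05). The groups did not overlap for any copy. Hsp70Aa, Hsp70Ba, Hsp70Bb and Hsp70Bc fell by 1.55, 1.57, 0.72 and 1.80 on the log2 scale. The Hsp70Bc call was lost without old Cas9 replicate 3 (adjusted p = 0.0631), and the Hsp70Ba call without old Marf-mut replicate 2 (0.144), old Cas9 replicate 2 (0.0655) or old Cas9 replicate 3 (0.0959).

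Further chaperone genes fell. Hsp68, a relative of Hsp70, had 251, 310 and 368 CPM in old Marf-mut, against 714, 718 and 790 CPM in old Cas9 (log2 fold change -1.28, adjusted p = 6.89e-07). The BAG-domain co-chaperone stv had 118, 140 and 164 CPM, against 365, 320 and 318 CPM (-1.27, adjusted p = 1.63e-08). For both, the highest Marf-mut library stayed far below the lowest Cas9 library. The J-domain co-chaperone DnaJ-1 had 183, 197 and 214 CPM in old Marf-mut, against 337, 316 and 282 CPM in old Cas9 (-0.68, adjusted p = 4.65e-05). The small heat shock protein genes Hsp26 and Hsp27 fell to 725, 724 and 773 CPM and to 274, 300 and 299 CPM in old Marf-mut, against 1450, 1440 and 1420 CPM and 625, 642 and 559 CPM in old Cas9. Their log2 fold changes were -0.98 (adjusted p = 8e-09) and -1.09 (adjusted p = 8.15e-09).

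Hsp67Ba and Hsp67Bc, further small heat shock genes, fell by 0.57 and 1.57 on the log2 scale. The Hsp67Bc call (adjusted p = 0.0173) was lost without old Marf-mut replicate 1 or without any one of the 3 old Cas9 libraries, at adjusted p between 0.0507 and 0.0779. The more constant chaperones Hsp83 and Hsc70-4 fell by 0.40 and 0.27. The Hsc70-4 call (adjusted p = 0.0498) was lost in 5 of the 6 omissions of a library and the Hsp83 call without old Marf-mut replicate 3 (adjusted p = 0.0549). Hsp23 had 782, 745 and 1060 CPM in old Marf-mut, against 1860, 1640 and 1220 CPM in old Cas9, without overlap, but was not called (adjusted p = 0.107). The single list member with a positive difference was the small heat shock gene l(2)efl, with 94, 76.6 and 98.9 CPM in old Marf-mut, against 48.1, 16.9 and 11 CPM in old Cas9 (adjusted p = 0.125, not called). The mitochondrial chaperone Hsp60A, which lies outside the heat shock list, had 731, 713 and 699 CPM in old Marf-mut, against 587, 578 and 601 CPM in old Cas9, and was not called (adjusted p = 0.0704). None of 13 tested mitochondrial chaperone and protease genes was called, while 10 had a positive difference and 3 a negative one. Summed over the list, levels lay between 2230 and 2280 CPM in old Marf-mut and between 1920 and 2090 CPM in old Cas9. Up to 2 of these genes were called higher in the alternatives, and 2 without old Cas9 replicate 1.

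**Figure D2:**
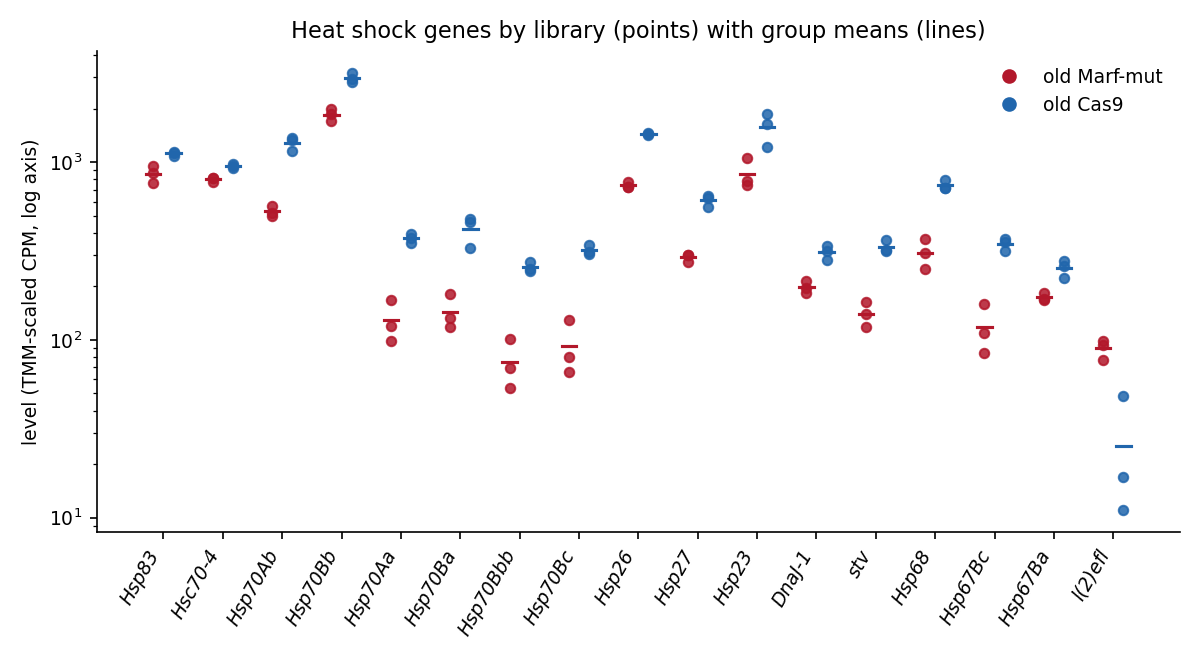
Level of 17 heat shock genes in TMM-scaled CPM on a log axis; points are libraries, lines are group means, with old Marf-mut in red left of old Cas9 in blue for each gene. The Marf-mut points lie below the Cas9 points for 16 of the genes, and l(2)efl shows the opposite order.

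Transcripts of the mitochondrial DNA were also lower. Its 13 protein genes encode core subunits of the respiratory chain and ATP synthase, and 11 of them fell and none rose, where 2.91% of all tested genes fell. The 13 genes took 3.87, 3.91 and 3.13% of UMIs in old Marf-mut and 5.04, 5.07 and 5.19% in old Cas9. All 13 had 3 Marf-mut values below the 3 Cas9 values, where 9.77% of all tested genes did. Over the 13, the median log2 fold change was -0.57.

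ATP6, an ATP synthase subunit, had 6180, 6170 and 5160 CPM in old Marf-mut, against 9320, 9220 and 9100 CPM in old Cas9 (log2 fold change -0.68, adjusted p = 4.53e-07). ATP8, its partner on an overlapping transcript, had 3200, 2820 and 2390 CPM, against 5370, 4960 and 5220 CPM (-0.91, adjusted p = 2.89e-05). ND6, a complex I subunit, had 1410, 1380 and 1210 CPM, against 2140, 1990 and 2000 CPM (-0.64, adjusted p = 6.43e-06). Old Marf-mut replicate 3 was the lowest Marf-mut library for each of the 3 genes. The called genes ND1, ND2, ND3, ND4L, ND5, COX2, COX3 and CYTB had log2 fold changes between -0.31 (ND1) and -0.70 (ND3). COX1 (6120, 6140 and 4860 CPM in old Marf-mut, against 6890, 7380 and 7680 CPM in old Cas9) and ND4 (1370, 1280 and 880 CPM, against 1900, 1720 and 1830 CPM) were not called, at adjusted p = 0.0607 and 0.0987.

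These calls were less firm than those of the heat shock genes. Without old Cas9 replicate 3, 6 mitochondrial DNA genes were called; COX2, COX3, CYTB, ATP8 and ND2 were lost, at adjusted p = 0.228, 0.22, 0.244, 0.0552 and 0.16. ND1 was lost in 5 of the 6 omissions and ND2 in 3. In a single fit of all 24 libraries, where the spread of other groups enters, none of the 13 was called, while 15 heat shock genes were. The large ribosomal RNA of the mitochondrion had 16400, 14100 and 12000 CPM in old Marf-mut, against 20800, 20500 and 22200 CPM in old Cas9, and was not called (adjusted p = 0.101), and the small ribosomal RNA, srRNA, at 190, 141 and 153 CPM against 82.7, 109 and 125 CPM, was called higher (log2 fold change 0.59, adjusted p = 0.0263). That call was lost without old Marf-mut replicate 1 or 3 or old Cas9 replicate 1 or 2. None of 9 tested mitochondrial DNA maintenance genes was called.

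**Figure D3:**
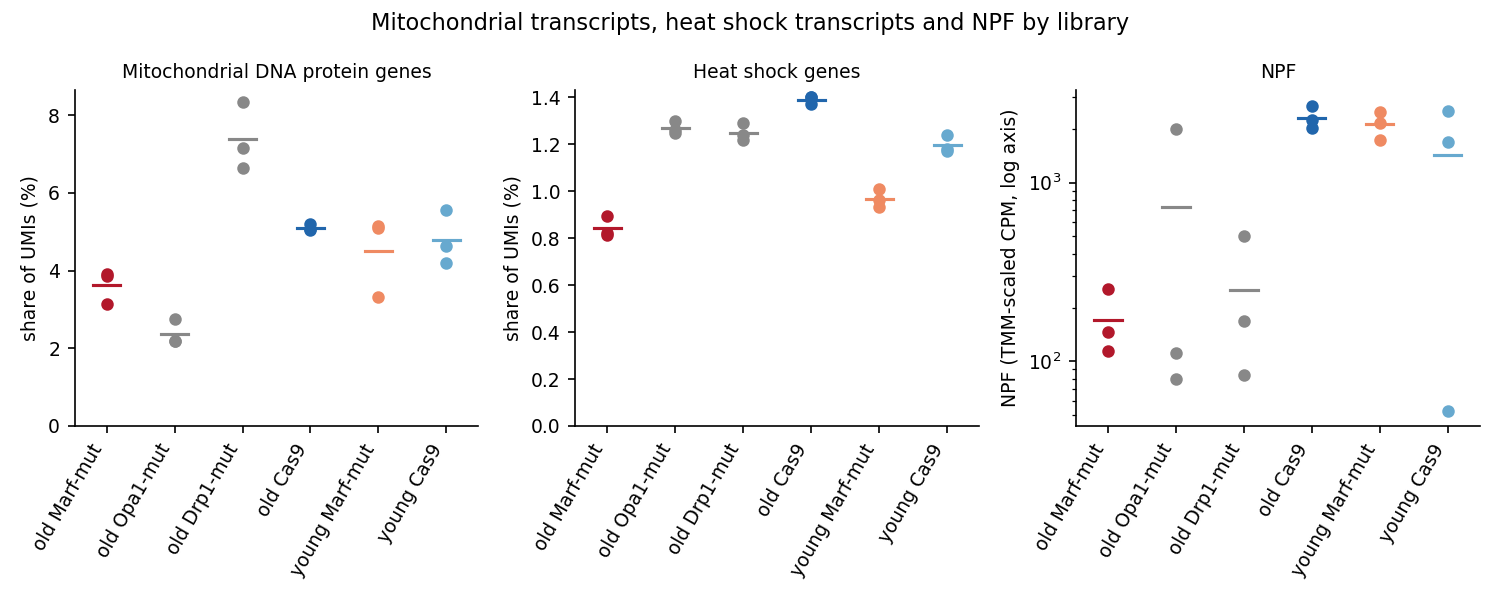
Share of UMIs from the 13 mitochondrial DNA protein genes (left) and from the heat shock list (middle), in percent, and NPF level in TMM-scaled CPM on a log axis (right), by group; points are libraries and lines are group means. Old Marf-mut had the lowest mean heat shock share of the 6 groups, its mitochondrial share lay between those of old Opa1-mut and old Cas9, and NPF was low in some libraries of several groups.

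Nuclear genes of the respiratory chain showed fewer calls. Of 32 tested complex I subunit genes, 4 fell and none rose (list median -0.09), and of 35 tested genes of complexes II to V, 7 fell and 1 rose (list median -0.17), where 2.91% of all tested genes fell. In a single fit of all 24 libraries none of these genes was called lower, and with library depth as a covariate 1 in each list was. The complex I subunit ND-MWFE had 380, 386 and 432 CPM in old Marf-mut, against 592, 568 and 568 CPM in old Cas9 (log2 fold change -0.55, adjusted p = 0.000162). ND-MLRQ, ND-AGGG and ND-B14.5A fell by 0.41, 0.36 and 0.32, and the ND-AGGG call was lost without old Marf-mut replicate 1 (adjusted p = 0.0816) and the ND-B14.5A call in 5 of the 6 omissions, at adjusted p between 0.0658 and 0.164. UQCR-6.4, a complex III subunit, had 382, 420 and 438 CPM in old Marf-mut, against 623, 606 and 663 CPM in old Cas9 (-0.63, adjusted p = 4e-05). The ATP synthase subunits sun and ATPsynE fell by 0.57 and 0.44 and the cytochrome oxidase subunit cype by 0.40. The cytochrome oxidase gene COX7AL rose, with 44.2, 39 and 50.9 CPM in old Marf-mut, against 19.7, 20.1 and 29.4 CPM in old Cas9 (adjusted p = 0.0115), and this call was lost without old Marf-mut replicate 3, old Cas9 replicate 1 or old Cas9 replicate 2. Among genes outside the lists, chosen after their values were seen, the import pore subunit Tom7 (-0.54) and the complex III subunit ox (-0.66) fell.

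Many of these falling genes have short transcripts, and falls were more frequent among genes with short transcripts. Of 172 tested nuclear protein-coding genes whose longest annotated transcript is under 600 nucleotides, 36 fell (20.9%) and 4 rose. Among genes from 600 to just under 1000 nucleotides, 30 of 676 fell (4.44%), and among those of 1000 nucleotides or more the share that fell was between 1.39 and 2.45%. In the shortest class, 5 of 11 respiratory chain genes fell (45.5%), and so did 31 of 161 other genes (19.3%). Genes with short transcripts took 4.77 ± 0.338% of UMIs in old Marf-mut and 5.55 ± 0.251% in old Cas9 (SD, n = 3 each). PolyA selection should remove nuclear ribosomal RNA. Together with its pseudogenes it took 0.0749 ± 0.00373% in old Marf-mut and 0.179 ± 0.0354% in old Cas9. The share was 0.0925 ± 0.0151% in young Marf-mut and 0.0773 ± 0.0195% in young Cas9, so old Cas9 was the highest of these 4 groups. The part of transcript length, RNA quality and library depth in the falls of short genes was not tested.

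Few ribosomal protein genes were called, at a share near the 2.91% of all tested genes that fell. Of 84 tested cytosolic ribosomal protein genes, 3 fell (RpL39, RpL22 and RpL41, by 0.43, 0.43 and 0.35), none rose, and 64 had a positive difference; with total counts as the scale 2 fell and 11 rose. Of 72 mitochondrial ribosomal protein genes, 3 fell (mRpL33, mRpS21 and mRpL34, each by 0.69) and none rose. The calls of RpL41, mRpL33, mRpS21 and mRpL34 were lost without old Marf-mut replicate 1, at adjusted p = 0.133, 0.057, 0.0537 and 0.0899, and those of RpL41 and mRpL34 in 3 of the 6 omissions in all. In a single fit of all 24 libraries no gene of either list was called. With genes under 600 nucleotides left out, an alternative added after seeing the data, 15 heat shock genes and 254 genes in all were called.

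**Figure D4:**
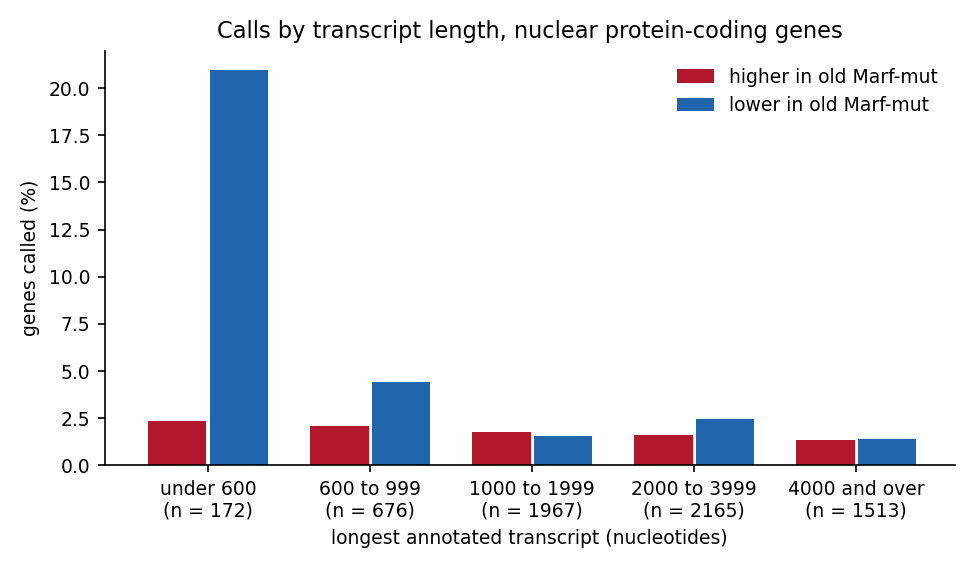
Percentage of tested nuclear protein-coding genes called higher (red) or lower (blue) in old Marf-mut than in old Cas9, by length of the longest annotated transcript, with the number of genes per class under each pair of bars. The bar of falls is tallest under 600 nucleotides, at 20.9%.

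Of 17 tested core clock genes, 3 fell and none rose, where 2.91% of all tested genes fell, and the list's median was -0.22. Pdp1, an activator of Clk, had 875, 852 and 882 CPM in old Marf-mut, against 1270, 1270 and 1200 CPM in old Cas9 (log2 fold change -0.54, standard error 0.08, adjusted p = 6.42e-05). The repressor tim had 669, 611 and 637 CPM, against 919, 981 and 825 CPM (-0.53, standard error 0.09, adjusted p = 0.000299). Both genes had separate groups and kept their calls in every omission of a library. Pdfr, the receptor of the peptide Pdf, had 109, 124 and 129 CPM in old Marf-mut, against 180, 211 and 143 CPM in old Cas9 (-0.58, adjusted p = 0.00857). That call was lost without old Marf-mut replicate 1 (adjusted p = 0.0791) or old Cas9 replicate 2 (0.11).

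The other clock genes gave values without a call. The repressor per had 63.4, 47.9 and 111 CPM in old Marf-mut, against 120, 115 and 84.7 CPM in old Cas9 (adjusted p = 0.496), with overlap. Clk had 42.7, 26.8 and 34.5 CPM, against 46.5, 47.3 and 48.8 CPM (adjusted p = 0.2), without overlap. The repressor vri (286, 253 and 295 CPM, against 369, 392 and 272 CPM; adjusted p = 0.118) and the blue-light receptor cry (251, 227 and 280 CPM, against 421, 512 and 269 CPM; adjusted p = 0.301) overlapped. Flies of both groups were taken at a single zeitgeber time, so a lower level and a shifted phase cannot be told apart. In young flies cry was called lower in Marf-mut than in Cas9 by the same test (-0.64, adjusted p = 0.0327). Its levels there were 240, 247 and 223 CPM, against 379, 424 and 322 CPM. It was also lower in old Marf-mut than in old Opa1-mut (-0.87, adjusted p = 1.84e-06).

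Among 14 tested neuropeptide genes of clock neurons, 1 fell and none rose, where 2.91% of all tested genes fell and 1.68% rose. NPF, a feeding and arousal peptide made by a subset of clock neurons (chromosome 3R, 16609220 to 16611325), had 254, 114 and 146 CPM in old Marf-mut, against 2690, 2230 and 2010 CPM in old Cas9. Its mean was 13.5-fold lower (log2 fold change -3.78, standard error 0.39, adjusted p = 0.0172). The groups were far apart, but the same gene swung as widely between libraries of a single suspension elsewhere: old Opa1-mut had 112, 79.2 and 1990 CPM, old Drp1-mut 501, 83.7 and 168 CPM, young Marf-mut 2160, 2480 and 1730 CPM, and young Cas9 52.9, 1690 and 2530 CPM. The call was lost without old Marf-mut replicate 3 (adjusted p = 0.0894), old Cas9 replicate 1 (0.0671) or old Cas9 replicate 2 (0.0802), and in a single fit of all 24 libraries (0.241).

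The other peptides were not called here, which depends on the test and setting used. In the authors' deposited DESeq2 table CNMa (adjusted p = 0.000543) and Trissin (0.0324) were called lower and Proc (1.48, adjusted p = 0.0252) higher. Among the alternative settings here, up to 3 genes of the list fell and up to 2 rose. CNMa had 542, 483 and 778 CPM in old Marf-mut, against 1610, 1340 and 1150 CPM in old Cas9 (adjusted p = 0.0615), and Trissin had 1330, 1380 and 2690 CPM, against 4700, 6240 and 3250 CPM (adjusted p = 0.222). Both had separate groups. Pdf, whose values stand above, also had separate groups, higher in old Marf-mut (log2 fold change 0.53, adjusted p = 0.197). The short neuropeptide sNPF and the ion transport peptide ITP overlapped (adjusted p = 0.912 and 0.821). The insulin-like peptide gene Ilp2, a marker of other secretory cells, had 384, 171 and 135 CPM in old Marf-mut, against 69.3, 8.83 and 9.2 CPM in old Cas9, and was not called (adjusted p = 0.242). In the authors' deposited DESeq2 table its relative Ilp3 was called higher (2.12, adjusted p = 0.00541). Ilp2 (2.97, adjusted p = 0.4) and Ilp5 (4, adjusted p = 0.763) were not called there.

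In the list of transmitter synthesis and transport, 3 of 16 tested genes fell and none rose, where 2.91% of all tested genes fell, with a median of -0.41. None of them was called with library depth as a covariate or in a single fit of all 24 libraries. The dopa decarboxylase gene Ddc had 407, 466 and 362 CPM in old Marf-mut, against 518, 560 and 555 CPM in old Cas9 (log2 fold change -0.43, adjusted p = 0.00764). The dopamine transporter gene DAT (-0.48, adjusted p = 0.014) and the vesicular glutamate transporter gene VGlut (-0.48, adjusted p = 0.021) fell as well. In a list of 9 genes of dopamine and its cofactor tetrahydrobiopterin, assembled after their values were seen, 5 fell and none rose: Ddc, DAT, Pu, Pcd and Dhpr. Pu, the GTP cyclohydrolase that starts cofactor synthesis, had 165, 175 and 176 CPM in old Marf-mut, against 323, 311 and 201 CPM in old Cas9 (-0.72, adjusted p = 0.0249).

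These calls were weak. Without old Marf-mut replicate 3, 1 gene of that list was called (Pcd); Ddc (adjusted p = 0.07), DAT (0.0737), Pu (0.0852) and Dhpr (0.0641) were lost there. Over the 6 omissions the Ddc call was lost in 2 and the DAT call in 2. The Pu call was lost in 4, at adjusted p between 0.0523 and 0.0852, and the Dhpr call in 4, at adjusted p between 0.0641 and 0.205. The VGlut call was lost without old Marf-mut replicate 1 or 3 or old Cas9 replicate 2 or 3. The tyrosine hydroxylase gene ple, at 231, 228 and 205 CPM in old Marf-mut against 343, 379 and 236 CPM in old Cas9, was not called (adjusted p = 0.0887).

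Among 23 tested vesicle release genes 1 fell, a share near the 2.91% of all tested genes. It was Syngr, the vesicle protein synaptogyrin, which had 312, 292 and 288 CPM in old Marf-mut, against 425, 424 and 475 CPM in old Cas9 (log2 fold change -0.59, adjusted p = 7.2e-05), a call lost with library depth as a covariate (adjusted p = 0.12). Of 31 tested dpr and DIP genes, which encode cell-surface recognition proteins, dpr12 (-0.46) and dpr17 (-0.52) fell. The dpr12 call was lost without old Cas9 replicate 2 (adjusted p = 0.0768) and the dpr17 call in 4 of the 6 omissions, at adjusted p between 0.112 and 0.153. None of 27 ion channel genes and none of 9 nicotinic receptor subunit genes was called. Several neuronal genes outside the lists, chosen after their values were seen, fell: the calcium sensor Syt7 (-0.68), the peptide convertase amon (-0.36) and its helper 7B2 (-0.32), the adhesion receptor Cirl (-0.54), the transcription factor FoxP (-0.47) and the nuclear reader of methylated RNA Ythdc1 (-0.89). Ythdc1 had 79.8, 89.4 and 91.5 CPM in old Marf-mut, against 144, 162 and 170 CPM in old Cas9 (adjusted p = 6.42e-05), and kept its call in every omission of a library. The 7B2 call was lost without old Cas9 replicate 2 (adjusted p = 0.0507), and the amon call in 3 of the 6 omissions.

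A lactate gene and neighbouring capsid genes rose strongly. Ldh, which turns pyruvate into lactate (chromosome 3L, 6259105 to 6262694), had 553, 385 and 574 CPM in old Marf-mut, against 136, 132 and 86.5 CPM in old Cas9. Its mean was 4.26-fold higher (log2 fold change 2.06, standard error 0.24, adjusted p = 0.0109), and the groups did not overlap. The call stayed in all 6 omissions of a library, and was lost with library depth as a covariate (adjusted p = 0.123) and in a fit of the 12 old libraries (0.0533). Of 16 tested glycolysis genes Ldh was the one called, where 4.58% of all tested genes were called, and the list's median was 0.03. Pfk, the phosphofructokinase, had 262, 231 and 299 CPM in old Marf-mut, against 213, 192 and 222 CPM in old Cas9 (adjusted p = 0.0702).

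Arc1, which encodes a virus-like capsid protein that carries its own RNA between cells, had 1170, 889 and 1020 CPM in old Marf-mut, against 232, 343 and 176 CPM in old Cas9 (4.09-fold higher, log2 fold change 2.01, standard error 0.30, adjusted p = 0.0409). The groups were far apart, yet the call was lost without any one of the 3 old Marf-mut libraries (adjusted p = 0.0976, 0.114 and 0.134) or without old Cas9 replicate 1 (0.155). Its relative Arc2 had 148, 128 and 133 CPM in old Marf-mut, against 55.9, 43.3 and 42.3 CPM in old Cas9 (1.499, adjusted p = 3.64e-07), and kept its call throughout. The unnamed gene CR10102, chosen after its values were seen, had 170, 130 and 150 CPM, against 34.7, 38.5 and 24.8 CPM (2.16, adjusted p = 7.13e-09). These 3 genes are neighbours on chromosome 2R: Arc1 spans 14357927 to 14360297, CR10102 14360433 to 14361780 and Arc2 14361924 to 14362825. The activity-regulated gene cbt fell, with 64.8, 67.7 and 60.5 CPM in old Marf-mut, against 122, 107 and 83.7 CPM in old Cas9 (-0.73, adjusted p = 0.00383). Thus 2 of 7 tested activity-regulated genes rose and 1 fell, where 1.68% of all tested genes rose and 2.91% fell.

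Sarm encodes an enzyme that destroys NAD and drives the breakdown of injured axons. It had 76.2, 65.1 and 67.8 CPM in old Marf-mut, against 15, 28.1 and 33.1 CPM in old Cas9 (log2 fold change 1.45, standard error 0.22, adjusted p = 0.000139), and kept its call in every omission and alternative. The gene's span also holds other genes on the opposite strand, and whether counting used strand is not given in the sources used here. Aldh, a mitochondrial aldehyde dehydrogenase, had 64.8, 42.1 and 66.1 CPM, against 25.2, 18.5 and 19.3 CPM (1.43, adjusted p = 0.000238), and overlaps Shawl on the opposite strand.

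Stress genes that respond to mitochondrial damage through ATF4 gave 1 call in each direction. Of 16 tested ATF4 and one-carbon genes, Ldh rose and AsnS fell. Differences were positive for 10 of them and negative for 6, with a median log2 fold change of 0.31, against 0.01 over all genes. For this and the stress lists below, 1.68% of all tested genes rose and 2.91% fell. The asparagine synthetase gene AsnS had 44.9, 72.8 and 72.3 CPM in old Marf-mut, against 152, 181 and 107 CPM in old Cas9 (log2 fold change -1.23, adjusted p = 0.00931), and its call was lost without old Cas9 replicate 1 (adjusted p = 0.0697). It overlaps chb on the same strand. The ATF4 gene crc had 749, 686 and 658 CPM in old Marf-mut, against 704, 706 and 706 CPM in old Cas9 (adjusted p = 0.873). Thor, Nmdmc, Pink1 and Ets21C were not called either (adjusted p = 0.879, 0.4, 0.792 and 0.176). Each of the stress lists given next held 1 call. Jafrac1 (0.29) of 18 antioxidant genes and GstD9 (0.80) of 16 glutathione transferases rose. Cyp28a5 (1.45) of 10 cytochrome P450 genes and Mmp1 (1.54) of 11 Jun kinase pathway genes rose too. DnaJ-1 of 17 genes of the endoplasmic reticulum stress response fell. In the order given, 10, 11, 9, 10 and 6 genes of these lists had a positive difference. The list medians were 0.07, 0.31, 0.49, 0.11 and -0.07. The Jafrac1, GstD9 and Mmp1 calls were lost in 5, 3 and 6 of the 6 omissions.

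Initiation factor 3 brings the small ribosomal subunit to messenger RNA. In a list of its subunits, assembled after their values were seen, all 13 tested genes had a positive difference, 3 rose (eIF3m 0.66, eIF3l 0.53, eIF3f1 0.52) and none fell. Of all tested genes 1.68% rose. The median of the list was 0.24, against 0.01 over all genes. A list assembled in this way cannot serve as a test of the family. With library depth as a covariate 1 of them was called (eIF3m). eIF3m had 511, 518 and 494 CPM in old Marf-mut, against 296, 334 and 317 CPM in old Cas9 (adjusted p = 1.74e-05). Non1, a nucleolar GTPase of large ribosomal subunit assembly, had 276, 262 and 276 CPM, against 158, 155 and 125 CPM (0.87, adjusted p = 3.76e-06). eIF6, which keeps the large subunit from joining too early, had 108, 83 and 93.2 CPM, against 55.1, 45.7 and 50.6 CPM (0.88, adjusted p = 0.000724). Both were chosen after their values were seen, and neither group overlapped. Of 33 tested aminoacyl-tRNA synthetase genes, HisRS rose (0.71, adjusted p = 0.0141), where 1.68% of all tested genes rose. The HisRS call was lost in 4 of 6 omissions, and 26 of the 33 had a positive difference.

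None of 7 cristae and prohibitin genes, 25 mitophagy and autophagy genes, 33 proteasome genes, 19 tricarboxylic acid cycle genes, 12 lipid metabolism genes or 6 innate immunity genes was called. Of all tested genes 4.58% were called, and lists this short can lack a call at that share.

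Among named genes with a mean of at least 20 UMIs in the higher group, the largest rise belonged to y, the yellow gene of body pigmentation, with 128, 109 and 119 CPM in old Marf-mut, against 7.88, 7.22 and 3.68 CPM in old Cas9 (log2 fold change 4.18, standard error 0.23, adjusted p = 2.2e-11). Old Opa1-mut (185, 152 and 183 CPM), old Drp1-mut (166, 166 and 182 CPM) and young Marf-mut neurons (179, 162 and 177 CPM) were high as well, and young Cas9 neurons had 14.4, 3.91 and 9 CPM. Each group with guides given here thus stood above both Cas9 groups. Fly strains and transgenes often differ at this gene, and strain background and Marf targeting cannot be told apart in this design. The methuselah-like receptor gene mthl8 had 11.4, 24.3 and 10.2 CPM in old Marf-mut, against 55.1, 53.8 and 45.1 CPM in old Cas9 (-1.77, adjusted p = 0.000159), and no UMI in old Opa1-mut or old Drp1-mut. The cuticle protein gene TwdlW had 14.2, 17.2 and 29.9 CPM, against 107, 108 and 114 CPM (-2.41, adjusted p = 1.38e-08).

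Most of the remaining large rises were of low-level genes. They included the tetraspanins Tsp42Ed (24.2, 23 and 20.9 CPM in old Marf-mut, against 3.94, 2.41 and 0 CPM in old Cas9; log2 fold change 3.28) and Tsp42Ea (1.55), the visual arrestin Arr2 (2.48) and the chitinase-like growth factor Idgf5 (2.01). The augmin subunit dgt2 (1.81), the Notch-responsive gene E(spl)m6-BFM (1.80), the thiol reductase GILT2 (1.51) and the organic anion transporter Oatp58Dc (1.48) also rose. Of these, Tsp42Ea was lost in 3 of the 6 omissions, E(spl)m6-BFM without old Cas9 replicate 2 (adjusted p = 0.0985), GILT2 in all 6 and Oatp58Dc in 5. Arr2, which is also a photoreceptor marker, had 33.5, 17.2 and 13 CPM in old Marf-mut, against 3.15, 5.62 and 1.84 CPM in old Cas9. Among other falls, the growth factor receptor Pvr had 32.1, 24.9 and 27.7 CPM, against 62.2, 54.6 and 60.7 CPM (-1.09), and spartin (-1.35) and the hormone receptor Lgr1 (-1.31) were lower too. The Lgr1 call was lost without old Marf-mut replicate 1 (adjusted p = 0.061) or old Cas9 replicate 1 (0.0688).

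Unnamed genes, chosen after their values were seen, held some larger fitted differences than the named ones. CG14545 had 19.9, 7.66 and 13 CPM in old Marf-mut, against 0.788, 0 and 0 CPM in old Cas9 (63 UMIs against 1; fitted log2 fold change 5.18, adjusted p = 0.000258). CG40635 (61 UMIs against 1; 5.12, adjusted p = 0.000202) and CG13029 (61 against 2; 4.32, adjusted p = 0.000258) also rose above the fitted value of y. None of the 3 calls was lost under any setting tried, but with 1 or 2 UMIs in old Cas9 the sizes of these fitted differences are poorly determined. CG17108 had 2.14, 5.75 and 5.09 CPM in old Marf-mut, against 62.2, 87.5 and 73.6 CPM in old Cas9 (log2 fold change -4.07, adjusted p = 8.47e-10). CG34247, with a transcript of 353 nucleotides, had 11.4, 18.5 and 21.5 CPM, against 113, 144 and 153 CPM (-2.98, adjusted p = 5.77e-10). CG9377 had 37.8, 23 and 22.6 CPM, against 130, 132 and 116 CPM (-2.22, adjusted p = 8.15e-09). Also chosen after their values were seen, the amino acid transporter path (0.77), the annexin AnxB9 (0.81), the sodium-proton exchanger Nhe3 (0.74) and the transcriptional regulator sbb (0.55) rose, and REPTOR-BP, a partner of the growth-control factor REPTOR, fell (-0.53).

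At the younger age the contrast between Marf-mut and Cas9 neurons gave 25 calls of 7229 tested genes (0.346%), 15 higher (0.207%) and 10 lower (0.138%). Whether the effect differed with age was tested by the interaction of genotype and age over the 12 libraries, which called 21 of 7385 genes (0.284%), 2 higher (0.0271%) and 19 lower (0.257%). Only 2 of 21 tested heat shock genes were called in young flies, stv and Hsp68, both lower, and the list's median there was -0.24. The interaction called 3 of the 21: Hsp70Bbb (-1.58), Hsp70Ba (-1.43) and Hsp27 (-0.74). The list took 0.969 ± 0.0384% of UMIs in young Marf-mut and 1.2 ± 0.0379% in young Cas9 (SD, n = 3 each).

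The interaction also called genes outside the heat shock list. Aldh had 16.8, 9.98 and 16.8 CPM in young Marf-mut, against 17.6, 21.5 and 19.8 CPM in young Cas9, and its effect was greater in old flies by 1.81 on the log2 scale (adjusted p = 0.0222). Ythdc1 had 163, 144 and 122 CPM in young Marf-mut, against 125, 112 and 106 CPM in young Cas9 (interaction -1.23, adjusted p = 0.0082), and Pvr 43.3, 43.8 and 52 CPM, against 44.4, 48.9 and 46.4 CPM (-1.12, adjusted p = 0.0311). For Ldh (27.9, 61.4 and 39.4 CPM in young Marf-mut, against 19.8, 20.2 and 12.6 CPM in young Cas9), Arc1 (212, 250 and 118 CPM, against 80.2, 36.5 and 80.1 CPM) and NPF the interaction was not called (adjusted p = 0.604, 0.835 and 0.339). For none of the 13 mitochondrial DNA genes was it called, and none was called in the young flies. The interaction rests on single libraries: it called 0 genes without young Cas9 replicate 3 and 140 without young Marf-mut replicate 3. Each of its groups was a single suspension, so differences between ages and between suspensions cannot be told apart.

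**Figure D5:**
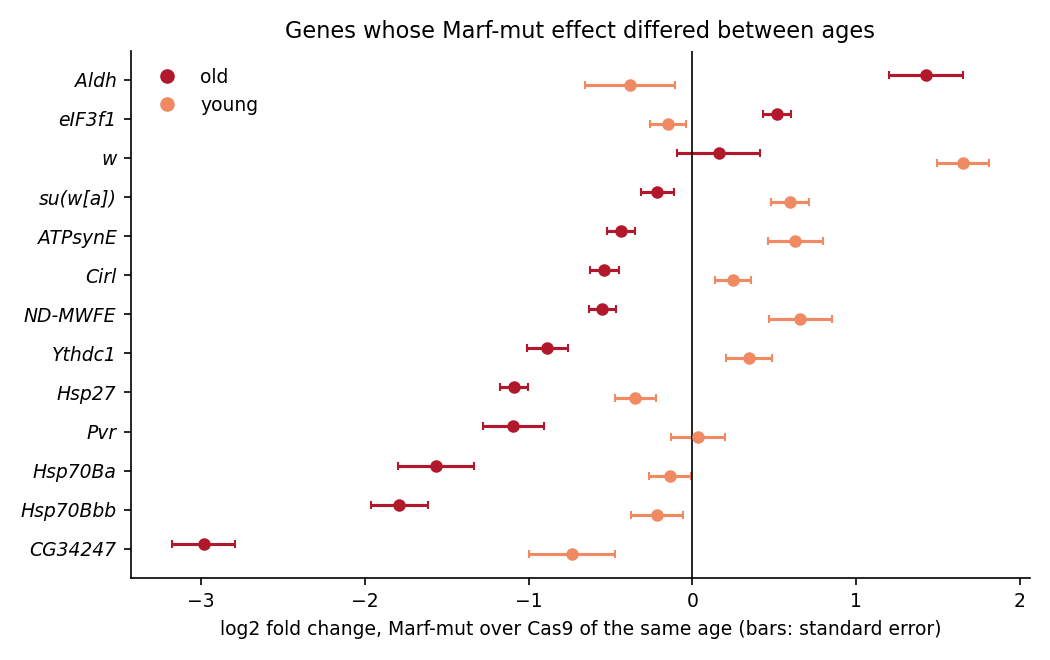
Log2 fold change of Marf-mut over Cas9 in old flies (dark red) and in young flies (orange), with standard errors, for 13 genes whose interaction of genotype and age was called. Aldh and eIF3f1 are higher in the old contrast than in the young one, and the other 11, among them the heat shock genes, lie farther to the left in the old contrast.

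Old Opa1-mut neurons, which carry UAS-3XgRNA-Opa1 against the inner-membrane fusion gene, gave a direct comparison, which shares the 3 old Marf-mut libraries with the comparison above. Old Marf-mut differed from old Opa1-mut in 1154 of 7244 tested genes (15.9%), 492 higher (6.79%) and 662 lower (9.14%). Of 21 heat shock genes, 14 were lower in old Marf-mut than in old Opa1-mut and none higher. Of the 6 Hsp70 copies 4 were lower, and Hsp70Ba, at 136, 186 and 145 CPM in old Opa1-mut, was not called (-0.11, adjusted p = 0.753). Hsp26 had 1660, 1570 and 1510 CPM in old Opa1-mut (old Marf-mut over old Opa1-mut -1.10, adjusted p = 9.99e-10) and stv 293, 300 and 341 CPM (-1.15, adjusted p = 8.54e-08). The old Opa1-mut heat shock share was 1.27 ± 0.0265% (SD, n = 3).

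Several rises were smaller in old Marf-mut than in old Opa1-mut. Ldh had 1810, 1790 and 1760 CPM in old Opa1-mut (old Marf-mut over old Opa1-mut -1.83, adjusted p = 2.37e-06), and Arc1 2110, 2360 and 2030 CPM (-1.09, adjusted p = 3.13e-08). Of 16 glycolysis genes, 12 were lower in old Marf-mut and 1 higher, and of 33 aminoacyl-tRNA synthetase genes 13 were lower and none higher. Sarm, at 78.1, 95.5 and 76.2 CPM in old Opa1-mut, was not called in this comparison (adjusted p = 0.199). The transcription factor gene kay had 81.9, 76.6 and 85.3 CPM in old Marf-mut, 269, 230 and 253 CPM in old Opa1-mut and 52, 65.8 and 65.3 CPM in old Cas9. It was lower in old Marf-mut than in old Opa1-mut (-1.63, adjusted p = 7.68e-11) and was not called against old Cas9 (adjusted p = 0.161). Mitochondrial DNA transcripts lay the other way: 7 of the 13 protein genes were higher in old Marf-mut than in old Opa1-mut and none lower. AnxB9 was higher too, with 63.7, 49.4 and 45.4 CPM in old Opa1-mut (1.47, adjusted p = 2.23e-08).

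Against old Cas9, which they share as controls, the groups' own counts stand side by side: 325 calls in old Marf-mut, 939 of 7119 genes (13.2%) in old Opa1-mut and 27 of 6847 (0.394%) in old Drp1-mut. In old Opa1-mut 537 were higher (7.54%) and 402 lower (5.65%), and in old Drp1-mut 18 were higher (0.263%) and 9 lower (0.131%). In the heat shock list, 15, 6 and 0 genes fell in old Marf-mut, old Opa1-mut and old Drp1-mut. Of the 6 Hsp70 copies, 6, 5 and 0 fell in these groups, with median log2 fold changes of -1.56, -0.65 and -0.03. In the mitochondrial DNA list, 11 and 13 genes fell in old Marf-mut and old Opa1-mut, and 12 rose in old Drp1-mut.

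A stricter test took the suspension as the unit, with counts summed over its 3 libraries, 8 sums in all and terms for genotype and age, which left 3 residual degrees of freedom. For Marf-mut against Cas9 over both ages it called 9 of 8707 genes (0.103%), 6 higher (0.0689%) and 3 lower (0.0345%), and 567 had an uncorrected p under 0.05. This test includes the libraries used above, so its calls are not independent of theirs. Called were y (log2 fold change 4.19), Arc1 (1.71, adjusted p = 0.00419) and CR10102 (1.98, adjusted p = 0.00906) higher, and CG9377 (-2.69, adjusted p = 0.00608), stv (-1.01, adjusted p = 0.0357) and an antisense RNA lower. Over this test Hsp70Ab (-0.97, adjusted p = 0.202) and Ldh (1.77, adjusted p = 0.726) were not called. Also called, and higher, were Nplp1, Ilp5 and Obp19d. Single libraries stood out for Nplp1, with 571, 565 and 4590 CPM in old Marf-mut, and for Obp19d, with 0.699, 2.3 and 52 CPM in young Marf-mut.

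The authors' deposited table of the same comparison called 199 of 10424 genes at the same threshold, 58 higher and 141 lower. Of these, 180 (90.5%) were also called here, all in the same direction, and they made up 55.4% of the 325 calls. The authors' deposited table gives Hsp70Ab a log2 fold change of -1.31 (adjusted p = 7.2e-37), Ldh 2.06 (adjusted p = 0.00134), Arc1 2.004 (adjusted p = 1.4e-16) and NPF -3.78 (adjusted p = 0.0239). Some genes not called here were called in that DESeq2 table. They include CNMa (-1.21, adjusted p = 0.000543), cry (-0.695, adjusted p = 0.00619) and Hsp23 (-0.898, adjusted p = 0.00729). Trissin (-1.42, adjusted p = 0.0324) and Hsp60A (0.25, adjusted p = 0.0417) were called there too. Ddc, DAT and Pdfr, called here, were not called there (adjusted p = 0.0923, 0.978 and 0.0841).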

How the data were processed

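The deposited table holds UMI counts per gene for 24 libraries, raw whole numbers per the file headers and values; all count columns were mapped to samples. STAR, DESeq2 and the dm6 build are named per the submitters' processing notes; their versions, the strand setting and the handling of reads that fit several genes were not given in the sources used here. The authors' deposited table of the comparison holds log2 fold changes and p-values, raw and adjusted, made with DESeq2 per the file headers.

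Here counts were tested with edgeR 4.0.16 (R 4.3.3): filterByExpr by group, TMM scaling, robust quasi-likelihood F test, Benjamini-Hochberg adjustment over all genes tested, called at adjusted p under 0.05. Levels are CPM scaled by TMM over all 24 libraries. Standard errors are the log2 fold change over the root of F. The procedure was tested on simulated data. Of 15610 genes in the table, 527 had no UMI, and 7090 passed the filter, with a median of 75 UMIs per library. Depth limits low genes: a gene at a few CPM rests on a few UMIs. Annotation came from Ensembl release 115, which matched 96.1% of gene symbols; several named genes overlap others.

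The rule for named genes took Marf, Drp1 and Opa1, the 15 largest rises and falls among called genes other than unnamed, noncoding and antisense ones with separate groups and a mean of at least 20 UMIs in the higher group, up to 4 called members of each of 40 lists, core clock genes, peptides, stress genes, and the 5 named genes with the smallest p of the other tests. The members and lists were chosen with earlier results of these data known, and 3 further lists were added after their values were seen. Replicate numbers do not pair the groups. No libraries of a group held identical values. Alternatives were another scale (DESeq2 1.42.0 size factors or total counts), no filter, the DESeq2 test, thinning to equal depth, depth as a covariate, a replicate block, larger fits, gene classes left out and leaving out each library.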

Additional observations from a re-analysis of the deposited data

Results flagged for a closer look

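For the genes given here, the Marf-mut effect in old flies differed from that in young flies by the interaction of genotype and age (edgeR quasi-likelihood test, Benjamini-Hochberg adjusted over 7385 genes; old effect minus young effect on the log2 scale). Each group in this test was a single suspension, so differences between ages and between suspensions cannot be told apart. Among 21 tested heat shock genes, Hsp70Bbb (-1.58, adjusted p = 0.0222), Hsp70Ba (-1.43, adjusted p = 0.0222) and Hsp27 (-0.74, adjusted p = 0.0359) passed. In young flies Hsp70Bbb had 130, 129 and 188 CPM in Marf-mut, against 189, 198 and 146 CPM in Cas9, and Hsp27 had 439, 423 and 453 CPM, against 631, 563 and 510 CPM.

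The nuclear respiratory genes ND-MWFE (-1.21, adjusted p = 0.0222) and ATPsynE (-1.06, adjusted p = 0.0222) were lower in old Marf-mut and not called in young Marf-mut. In young flies ND-MWFE had 643, 723 and 414 CPM in Marf-mut, against 323, 437 and 383 CPM in Cas9, and ATPsynE had 619, 690 and 427 CPM, against 379, 427 and 334 CPM. Young Marf-mut replicate 3 was the lowest of its group for both.

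The eye pigment transporter gene w (-1.49, adjusted p = 0.0222) rose in young Marf-mut, at 85.2, 102 and 98.2 CPM against 32.6, 30 and 29.7 CPM in young Cas9 (log2 fold change 1.65, adjusted p = 3.32e-05), while in old flies it had 99, 90 and 144 CPM in Marf-mut, against 135, 77 and 81.9 CPM in Cas9 (adjusted p = 0.816). Transgenes often carry this gene, so strain, construct and Marf targeting cannot be told apart. The splicing regulator su(w[a]) differed by -0.81 (adjusted p = 0.019), with 207, 214 and 216 CPM in young Marf-mut, against 153, 128 and 148 CPM in young Cas9.

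Aldh differed by 1.81 (adjusted p = 0.0222), eIF3f1 by 0.67 (adjusted p = 0.0222), Pvr by -1.12 (adjusted p = 0.0311), Ythdc1 by -1.23 (adjusted p = 0.0082), Cirl by -0.78 (adjusted p = 0.0133) and the unnamed CG34247 by -2.25 (adjusted p = 0.0222). All of these calls were lost without young Cas9 replicate 3, where the interaction called 0 genes.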

How the results depend on the processing

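The 325 calls became 138 with log2 depth as a covariate and 117 in a single fit of all 24 libraries; leaving out each library in turn gave 201 to 468. Other alternatives gave 218 (DESeq2) to 482 (no filter on low counts), and no called gene changed sign in any of them. With total counts as the scale, the median of all genes was 0.10 on the log2 scale, and 374 genes were called, 232 higher and 142 lower. The replicate numbers do not pair the groups (correlations of deviations -0.047, 0.04 and -0.068), and with them as a replicate block 250 genes were called, 83 higher and 167 lower.

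Against old Opa1-mut, DESeq2 gave 537 calls and omissions 794 to 1158. The interaction with age gave 127 calls with no filter, 48 with DESeq2 and 0 to 140 in omissions. The test on suspension sums gave 14 with total counts, 65 with no filter, 48 with DESeq2 and 5 to 48 in omissions. The causes were not tested.

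Heat shock calls stayed between 12 and 16 in every alternative and omission. Mitochondrial DNA calls ran between 0 (24 libraries in a single fit) and 13, and in that fit the lists of nuclear respiratory genes and of both ribosomes gave 0 falls.

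Some genes without a call changed sign. With total counts, Drp1 stood at 0.001 and crc at 0.05. With depth as a covariate, crc stood at 0.089, Opa1 at -0.11, w at -0.46, Vmat at 0.30 and Dsk at 0.90. Leaving out each library gave -0.021 to 0.138 for Opa1, -0.094 to 0.007 for crc, -0.073 to 0.457 for w, -0.20 to 0.675 for sNPF, -0.467 to 0.133 for ITP, -1.029 to 0.20 for Dsk, -6.035 to 2.54 for Crz and -0.502 to 0.16 for Thor, which was called without old Cas9 replicate 3.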
